A study of Homo sapiens with 9 samples.

Results

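SMARCA2 and 9 further genes of the SWI/SNF chromatin remodelling complex were followed across 9 samples of the established human embryonic stem cell line H9. The 10 genes were SMARCA2, SMARCA4, SMARCB1, SMARCC1, SMARCC2, SMARCD1, SMARCD3, SMARCE1, ARID1A and ARID1B. Their gene symbols picked out 11 of the 29096 probe sets that were not controls, a probe set being the group of array probes read together for a transcript. SMARCA2 was selected on its signal, which was higher with an siRNA against TCF7L1 than in the controls, so its values under that siRNA are a description and carry no test. The other genes were chosen as subunits of the complex. In the deposited annotation all 10 genes carried the cellular component term SWI/SNF complex, which 15 genes of the table carried.

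The samples formed 3 groups of 3, all of the same line and all labelled day 3. In the first group the cells received no siRNA, in the second a non-silencing siRNA and in the third an siRNA against TCF7L1, which encodes a DNA-binding factor of the TCF/LEF family that mainly represses genes of the Wnt pathway. Each sample was read on 1 whole-transcript array, and the values are linear signals made with PLIER, which models the response of each probe. The series holds a single cell line, the knockdown lowers a transcript without removing the gene, and the labels do not say whether replicates were separate cultures, so p-values measure the spread between these samples only.

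SWI/SNF complexes spend ATP to slide or evict nucleosomes and so change which DNA is open to transcription factors. Every complex holds a motor ATPase, either SMARCA2 (also called BRM) or SMARCA4 (BRG1), together with further subunits that differ between its forms. The BAF form carries ARID1A or ARID1B, while the non-canonical form lacks SMARCB1 and an ARID subunit. Mouse embryonic stem cells are known for a form built around Smarca4, which they need for self-renewal, and the SMARCA2 form is better known from differentiated cells.

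TCF7L1 transcript was low in every sample given its siRNA. The signals of TCF7L1 were 1473, 1842 and 1667 without siRNA, 1709, 1703 and 1625 under non-silencing siRNA and 389, 346 and 352 under TCF7L1 siRNA, and the last group did not overlap the others. Compared by limma, TCF7L1 fell by 2.17 (log2, SE 0.10, adjusted p = 7.26e-06) from its non-silencing level. The labelled cell type was checked with fixed marker lists: all 10 pluripotency markers lay above the array median on all 9 arrays. Of 10 fibroblast or feeder markers 3 did (COL1A1, COL1A2 and THY1), and DCN and FAP lay at or under the 25th percentile of every array. Of 8 neural markers 4 lay above the median throughout, and of 9 mesendoderm markers 3. No marker of these lists passed the threshold of adjusted p under 0.05 by limma in any comparison. Of all tested probe sets 0.0263% passed for TCF7L1 siRNA against non-silencing siRNA, 0.0527% against no siRNA and 0.0% between the controls. Lists of this size would thus hold few calls or none at that share. The summed signal of the 10 fibroblast markers ran from 3415 to 3592 without siRNA, from 3176 to 3560 under non-silencing siRNA and from 2823 to 3187 under TCF7L1 siRNA, and that of the 9 mesendoderm markers from 1143 to 1203, from 1083 to 1452 and from 1219 to 1545 in the same order. Under TCF7L1 siRNA the fibroblast sum thus lay below, and the mesendoderm sum above, all samples without siRNA, and both overlapped the non-silencing samples. Their part in the results was not tested. In such bulk samples fewer cells of a type and less RNA per cell cannot be told apart.

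The SMARCA2 probe set has 52 probes along the gene (chromosome 9, plus strand, 2015342 to 2193624 on GRCh37, the build of all array positions given here) and reads long and short SMARCA2 transcripts together. RefSeq gives 4 start sites for SMARCA2, the later ones 6598, 142315 and 143117 bases after the first, and the array does not tell their transcripts apart. The starts of the paralogous ATPase genes are shown because the difference described next is in the balance between them. Each window runs from 250 bases before to 50 bases after a start site, 5′ to 3′, from RefSeq on build GRCh38.p14. Capitals mark CG dinucleotides, the sites of DNA methylation.
SMARCA2, first start, chr9:2015097-2015396, plus strand: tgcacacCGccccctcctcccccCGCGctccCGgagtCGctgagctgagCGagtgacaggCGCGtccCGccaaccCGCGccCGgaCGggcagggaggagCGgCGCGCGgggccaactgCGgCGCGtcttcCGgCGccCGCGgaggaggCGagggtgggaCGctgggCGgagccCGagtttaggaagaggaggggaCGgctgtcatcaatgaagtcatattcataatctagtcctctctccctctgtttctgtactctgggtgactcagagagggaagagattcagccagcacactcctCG
SMARCA2, downstream start, chr9:2157412-2157711, plus strand: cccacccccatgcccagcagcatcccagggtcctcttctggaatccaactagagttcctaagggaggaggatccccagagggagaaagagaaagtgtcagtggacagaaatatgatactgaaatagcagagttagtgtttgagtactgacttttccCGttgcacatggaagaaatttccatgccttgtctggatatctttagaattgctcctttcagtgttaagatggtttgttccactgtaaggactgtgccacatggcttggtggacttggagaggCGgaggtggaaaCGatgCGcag
SMARCA4, first start, chr19:10960780-10961079, plus strand: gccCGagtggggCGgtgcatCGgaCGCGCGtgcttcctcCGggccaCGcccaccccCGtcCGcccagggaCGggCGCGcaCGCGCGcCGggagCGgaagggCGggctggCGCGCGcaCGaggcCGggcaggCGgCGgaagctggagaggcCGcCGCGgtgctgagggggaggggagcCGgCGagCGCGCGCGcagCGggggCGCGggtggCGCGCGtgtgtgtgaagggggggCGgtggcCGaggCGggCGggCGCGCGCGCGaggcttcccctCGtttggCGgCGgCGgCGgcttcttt
The first SMARCA2 window holds 30 CG dinucleotides and 66.7% G or C, and the downstream SMARCA2 window (142315 bases after the first) holds 4 and 48.7%. The SMARCA4 window holds 55 and 81.3%. The median over 35116 windows of the same length was 14 and 58.7%. Windows were found for 8 of the 10 genes (15 windows in all), and SMARCC1 and SMARCC2 had none in the table. The TCF/LEF motif, searched as CTTTGAA or CTTTGAT on both strands, was in none of the 15 windows and in 6.86% of all windows. No match says only that these letters are not in these windows.

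SMARCA2 was higher in every sample given TCF7L1 siRNA than in any other sample. Its signals were 73.6, 86.2 and 73.8 without siRNA, 77.7, 70.5 and 65.7 under non-silencing siRNA and 198, 157 and 167 under TCF7L1 siRNA. The lowest sample of the last group lay well above the highest control sample, and replicate 1 of that group was the highest of all. Group means were 77.9 ± 7.20, 71.3 ± 6.02 and 173.7 ± 21.4 (SD, n = 3 each). On the linear scale the mean under TCF7L1 siRNA was 2.44-fold that under non-silencing siRNA and 2.23-fold that without siRNA. On the scale of log2(signal + 16), where the added 16 steadies low signals and makes their changes look smaller, the differences were 1.12 (SE 0.11, 95% interval 0.88 to 1.36) and 1.01 (SE 0.11, 95% interval 0.77 to 1.25). These contrasts share the TCF7L1 siRNA samples. SMARCA2 was selected on its signal in them, so the intervals are a description and not a test. All 6 control signals lay below the median of their array and above its 25th percentile, and the 3 signals under TCF7L1 siRNA lay above the median.

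Between the controls SMARCA2 did not pass. The groups overlapped, with a log2 difference of -0.10 (SE 0.11, 95% interval -0.34 to 0.14, adjusted p = 0.927). In order of level the TCF7L1 siRNA group therefore stood first, and the control groups did not differ beyond their spread. Without any 1 of the 9 arrays the log2 difference of SMARCA2 stayed between 1.03 and 1.18 against the non-silencing siRNA and between 0.92 and 1.08 against no siRNA. These ranges only describe the arrays on which SMARCA2 was selected.

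SMARCA4 (chromosome 19, plus strand, 11071606 to 11172953), the other motor of the complex, did not pass the threshold in any comparison. Its signals were 921, 1024 and 924 without siRNA, 1007, 1019 and 894 under non-silencing siRNA and 975, 905 and 897 under TCF7L1 siRNA. The groups overlapped. Against the non-silencing siRNA the log2 difference was -0.07 (SE 0.09, 95% interval -0.28 to 0.14, adjusted p = 1). Against no siRNA it was -0.05 (95% interval -0.25 to 0.16, adjusted p = 0.881), and between the controls 0.02 (95% interval -0.18 to 0.23, adjusted p = 0.969). The signs of these last differences turned with some settings or single arrays left out. The upper bounds lie far below the differences seen in SMARCA2.

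**Figure D1:**
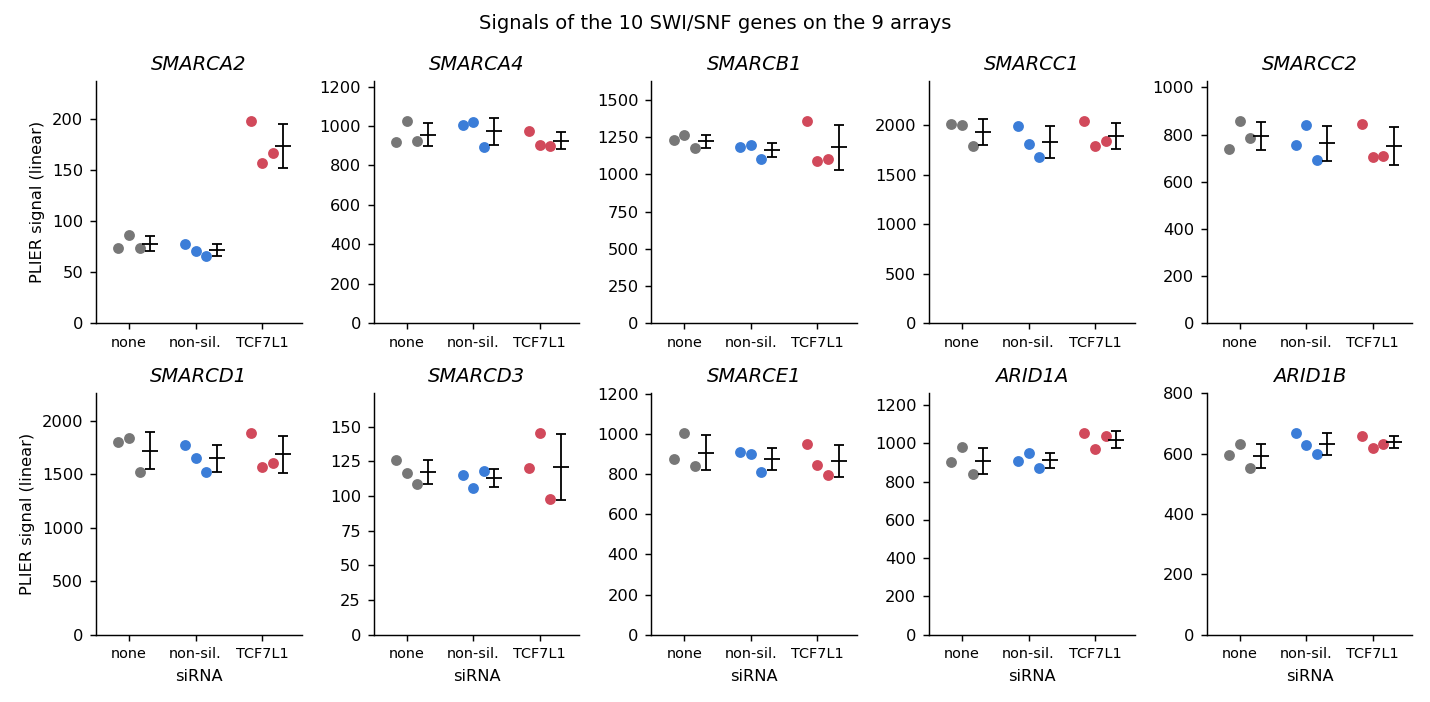
Signals of the 10 SWI/SNF genes on a linear scale that starts at 0, 1 panel per gene, with the 9 arrays as points in replicate order and the mean ± SD of 3 arrays beside each group. SMARCA2 lies between 157 and 198 under TCF7L1 siRNA and between 65.7 and 86.2 in the 6 controls, and in the other panels at least one pair of groups overlaps.

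The balance of SMARCA2 to SMARCA4 was taken within each array. That cancels a log2 shift common to both signals. It does not cancel a difference in array spread, which acts unlike on low and high signals. Signals of different probe sets are not on a common scale, so the ratio is given relative to its mean without siRNA and says nothing about which transcript is the more abundant. On the log2 scale the 3 samples without siRNA lay between -0.01 and 0.03, the non-silencing samples between -0.21 and -0.08 and the TCF7L1 siRNA samples between 0.96 and 1.16. No group overlapped another. Both signals entered the ratio after addition of the constant that steadies low signals, so its folds are not those of the linear signals. They are not comparable with the linear folds of SMARCA2 given above. Set against the non-silencing group the ratio under TCF7L1 siRNA was 1.19 higher, and set against no siRNA 1.06 higher. SMARCA2 was chosen for its rise in these samples, so the separation of their ratio is a description and carries no test. With that constant the ratio was 2.28-fold and 2.08-fold that of the same groups. It was 0.13 lower under non-silencing siRNA than without (difference -0.13, exact two-sided permutation p = 0.1, the smallest that 3 samples against 3 can give, and 0.25 after Benjamini-Hochberg adjustment over 10 ratio comparisons).

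The core subunits SMARCB1, SMARCC1, SMARCC2, SMARCD1, SMARCD3 and SMARCE1 did not pass in any comparison. SMARCB1 (chromosome 22, plus strand, 24129150 to 24176705) grips the nucleosome and is lost in rhabdoid tumours. It had 1232, 1261 and 1176 without siRNA, 1184, 1196 and 1106 under non-silencing siRNA and 1356, 1087 and 1102 under TCF7L1 siRNA. Its highest and lowest samples were both in the TCF7L1 siRNA group, and the difference from the non-silencing siRNA was 0.02 (log2, SE 0.10, adjusted p = 1).

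SMARCC1 (chromosome 3, minus strand, 47627387 to 47823406) and SMARCC2 (chromosome 12, minus strand, 56556767 to 56583351) encode paralogous scaffold proteins on which the complex is assembled, and the stem cell form in mouse is known for using Smarcc1. Signals of SMARCC1 were 2017, 2004 and 1785 without siRNA, 1997, 1810 and 1675 under non-silencing siRNA and 2039, 1790 and 1844 under TCF7L1 siRNA. SMARCC2 had 741, 856 and 787, then 755, 841 and 693, then 844, 703.5 and 708.5 in the same order. All groups overlapped for both genes. Against the non-silencing siRNA SMARCC1 differed by 0.05 (log2, SE 0.10, adjusted p = 1) and SMARCC2 by -0.02 (SE 0.11, adjusted p = 1). The SMARCC1 to SMARCC2 ratio differed by 0.07 (exact permutation p = 0.6, n = 3 per group; adjusted p = 1).

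SMARCD1 (chromosome 12, plus strand, 50479007 to 50494425) and SMARCD3 (chromosome 7, minus strand, 150936059 to 150974241) encode alternative forms of a subunit that bridges the complex to transcription factors, and SMARCD3 is known from heart and muscle. SMARCD1 had 1799, 1843 and 1523 without siRNA, 1775, 1654 and 1519 under non-silencing siRNA and 1887, 1569 and 1604 under TCF7L1 siRNA. SMARCD3 had 126, 117 and 108.5, then 115, 106 and 118, then 120, 145 and 97.9. SMARCD3 was the most scattered of the 9 genes within a group, with an SD of 19.6% of the mean under TCF7L1 siRNA, and replicates 2 and 3 of that group were its highest and lowest samples. Against the non-silencing siRNA SMARCD1 differed by 0.03 (log2, SE 0.11) and SMARCD3 by 0.07 (SE 0.12), both at adjusted p = 1. The SMARCD1 to SMARCD3 ratio overlapped in every comparison and differed by -0.045 from the non-silencing siRNA. It differed by -0.06 from no siRNA (exact permutation p = 0.9, n = 3 per group) and by -0.02 between the controls (exact permutation p = 0.8).

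SMARCE1, a subunit with a DNA-binding HMG domain, was read by 2 probe sets. The longer one covers 38783962 to 38804764 on the minus strand of chromosome 17 and had 873, 1004 and 842 without siRNA, 910, 901 and 810 under non-silencing siRNA and 950, 846 and 796 under TCF7L1 siRNA. The shorter one, from 38782935 to 38783302, gave 51.9, 57.05 and 47.5, then 57.7, 58.0 and 54.4, then 38.8, 57.8 and 58.9, below the array median on every array. Neither separated the groups, and their differences from the non-silencing siRNA were -0.02 (log2, SE 0.11) and -0.11 (SE 0.12), each at adjusted p = 1.

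ARID1A (chromosome 1, plus strand, 27022524 to 27108595) and ARID1B (chromosome 6, plus strand, 157099064 to 157530402) encode the alternative DNA-binding subunits of the BAF form of the complex. ARID1A had 901, 979 and 842 without siRNA, 909, 949 and 873 under non-silencing siRNA and 1054, 969 and 1036 under TCF7L1 siRNA. The 3 TCF7L1 siRNA samples lay above the 3 non-silencing samples and overlapped those without siRNA. ARID1A differed by 0.16 from the non-silencing siRNA (log2, SE 0.09, 95% interval -0.04 to 0.36, adjusted p = 1) and by 0.17 from no siRNA (SE 0.09, adjusted p = 0.665), and did not pass. ARID1B had 594, 633 and 553, then 668, 629 and 598, then 660, 620 and 633, with overlap throughout and a difference from the non-silencing siRNA of 0.01 (SE 0.09, adjusted p = 1). The within-array ratio of ARID1A to ARID1B lay between 0.03 and 0.10 under TCF7L1 siRNA, between -0.16 and -0.02 under non-silencing siRNA and between -0.01 and 0.02 without siRNA, on the log2 scale about its mean without siRNA. The ratio was 0.15 higher under TCF7L1 siRNA than under non-silencing siRNA and 0.06 higher than without siRNA (exact permutation p = 0.1 each, n = 3 per group; adjusted p = 0.25). Between the controls it was lower under non-silencing siRNA by the same p (difference -0.08), so no group overlapped another.

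**Figure D2:**
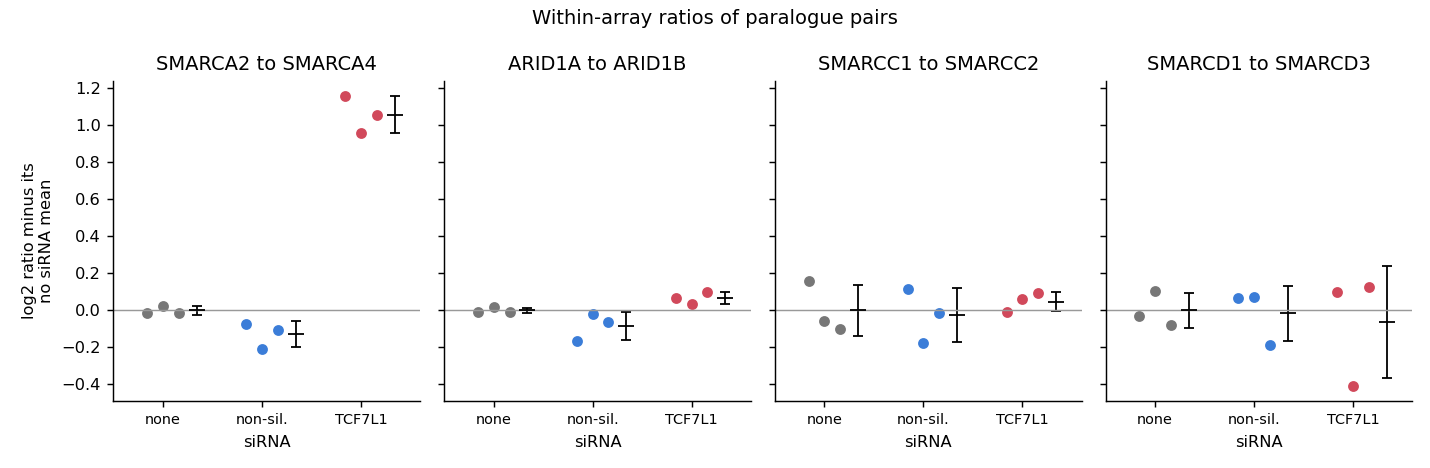
Within-array log2 ratios of 4 paralogue pairs minus the mean of the samples without siRNA, with arrays as points and the mean ± SD of 3 arrays beside each group. The SMARCA2 to SMARCA4 ratio stands at 0.96 to 1.16 under TCF7L1 siRNA, for which SMARCA2 was chosen, so its separation there is no test. Every point of the other pairs, which were not chosen in that way, lies between -0.41 and 0.16.

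Counted together, 0 of the 9 genes other than SMARCA2 passed the threshold of adjusted p under 0.05 by limma against the non-silencing siRNA, where 0.0263% of 22784 tested probe sets passed (0.0219% as higher), or against no siRNA, where 0.0527% did (0.0307% as higher). SMARCA2, chosen for its difference there, is left out of these counts. Between the controls 0 of all 10 genes passed by limma, where 0.0% of the probe sets did. At an unadjusted p under 0.05 that comparison held 0 of the 10 genes and 2.41% of all probe sets, and that share was 2.58% and 7.26% for TCF7L1 siRNA against non-silencing siRNA and no siRNA, with 0 of the 9 other genes in either. The other 9 genes had a median log2 difference of 0.02 against the non-silencing siRNA (6 above 0, range -0.07 to 0.16), where the median of all tested probe sets was -0.01. For these 9 genes all 95% intervals against the non-silencing siRNA held 0 and lay within -0.28 to 0.36. Of the 9, ARID1A alone had groups that did not overlap in that comparison, where 4.99% of all tested probe sets did not (1.88% higher and 3.12% lower). Against no siRNA 0 of the 9 were apart (background 6.43% higher and 7.93% lower), and between the controls 0 of the 10 (background 2.47% higher and 4.39% lower).

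**Figure D3:**
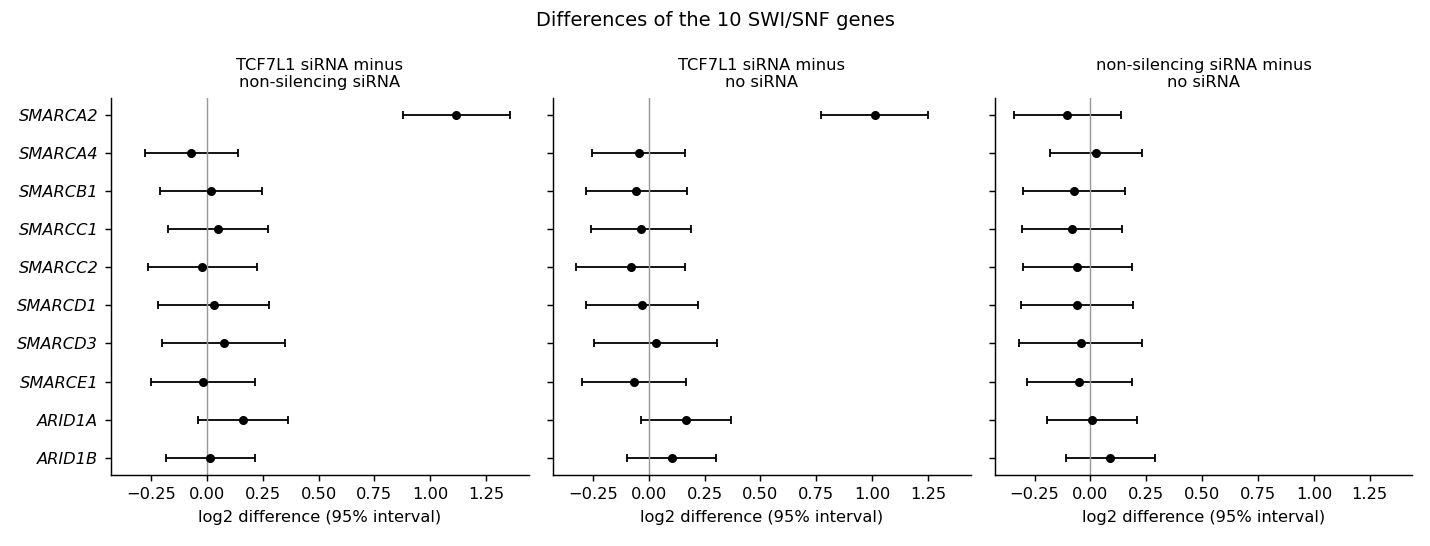
Log2 differences of the 10 SWI/SNF genes with 95% intervals of the linear model, 1 panel per comparison. SMARCA2 stands at 1.12 and 1.01 in the panels under TCF7L1 siRNA, for which it was chosen, so its intervals there are no test. It stands at -0.10 between the controls, and the intervals of the other 9 genes hold 0 in every panel.

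The level of the 9 genes other than SMARCA2 varied from array to array within each group. Relative to the mean without siRNA, their median shift was 0.00, 0.10 and -0.10 in the 3 samples without siRNA, 0.01, -0.00 and -0.14 under non-silencing siRNA and 0.09, -0.09 and -0.10 under TCF7L1 siRNA (log2, in replicate order). All 9 lay above that mean in TCF7L1 siRNA replicate 1, against 3 and 2 of 9 in replicates 2 and 3. The median shift of all tested probe sets was 0.02, 0.00 and -0.01, then -0.00, -0.00 and -0.05, then -0.01, -0.07 and 0.01 in the same order of arrays. Its lowest values were in non-silencing replicate 3 and TCF7L1 siRNA replicate 2, where the 9 genes were low as well. In no siRNA replicate 3 and TCF7L1 siRNA replicate 3 the 9 genes were also low (-0.10 each), while all tested probe sets stood at -0.01 and 0.01. The interquartile range of the array was 2.56, 2.67 and 2.56, then 2.67, 2.49 and 2.35, then 2.62, 2.35 and 2.50 in the same order, and its part in these shifts was not tested. With array spread as a covariate SMARCA2 differed by 1.13 from the non-silencing siRNA and 1.11 from no siRNA.

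**Figure D4:**
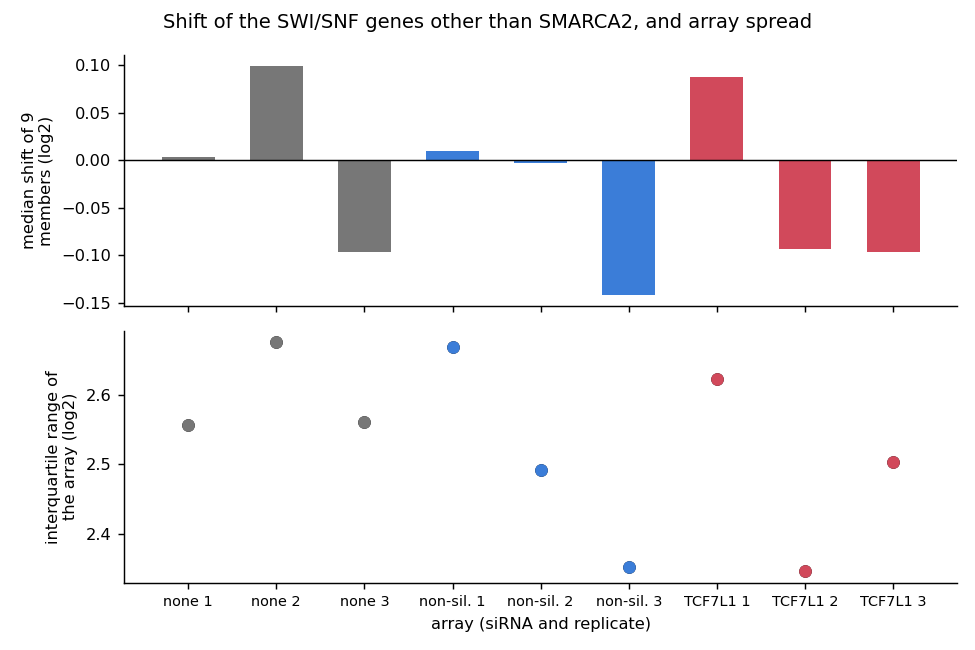
Upper panel, median log2 shift of the 9 genes other than SMARCA2 on each array from their mean without siRNA, as bars from 0; lower panel, interquartile range of log2 signals on the same arrays as points. The bars run from -0.14 to 0.10 and take both signs in every group.

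Other subunits of SWI/SNF complexes were examined as a list of 21 genes, which covers the alternative subunits of the BAF, PBAF and non-canonical forms and those used in neurons. None of the 21 passed by limma in any comparison, where 0.0263%, 0.0527% and 0.0% of all tested probe sets did. At an unadjusted p under 0.05 there was 1 of 21 against the non-silencing siRNA (2.58% of all tested probe sets), 1 against no siRNA (7.26% of all) and 0 between the controls (2.41% of all). The median log2 differences were 0.01, -0.02 and -0.01, where those of all tested probe sets were -0.01, -0.02 and -0.01.

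BCL11A, a zinc finger protein that joins BAF complexes and is known as a repressor of fetal globin, had the smallest p of the list. Its signals were 322, 349 and 369 without siRNA, 360, 368 and 338 under non-silencing siRNA and 415.5, 374.6 and 474.6 under TCF7L1 siRNA. The TCF7L1 siRNA samples lay above the other 6, with differences of 0.23 (log2, SE 0.10, adjusted p = 1) and 0.27 (SE 0.10, adjusted p = 0.662), which did not pass. Its paralogue BCL11B had means of 113.5, 128 and 141 in the order of no siRNA, non-silencing and TCF7L1 siRNA, and a difference of 0.27 from no siRNA (SE 0.14, adjusted p = 0.662). Under TCF7L1 siRNA 1 of the 21 was higher without overlap against non-silencing siRNA and 0 lower. Of all tested probe sets 1.88% and 3.12% were. Against no siRNA 3 of the 21 were higher and 2 lower, where 6.43% and 7.93% of all were.

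Among the remaining named subunits, PHF10 of the PBAF form differed by 0.17 from the non-silencing siRNA (SE 0.12) and the actin-related ACTL6A by -0.10 (SE 0.09), each at adjusted p = 1. BRD7, a bromodomain subunit of PBAF, had 613 ± 17.6 under TCF7L1 siRNA, 613 ± 24.4 under non-silencing siRNA and 688 ± 57.6 without siRNA (SD, n = 3 each). That gave -0.16 for either siRNA against none (SE 0.09; adjusted p = 0.666 and 0.927). ACTL6B, the neuronal counterpart of ACTL6A, differed by 0.28 between the controls (SE 0.17, adjusted p = 0.927), and SS18 by -0.10 (SE 0.09, adjusted p = 0.927).

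ATPases of the other remodeller families were examined as a list of 25 genes that includes the ISWI motors, the CHD proteins, INO80 and ATRX. None of the 25 passed by limma in any comparison, where 0.0263%, 0.0527% and 0.0% of all tested probe sets did (TCF7L1 siRNA against non-silencing siRNA, against no siRNA, and between the controls). At an unadjusted p under 0.05 there were 0, 1 and 1 of 25, against 2.58%, 7.26% and 2.41% of all. CHD7, which is mutated in CHARGE syndrome, had the smallest p against the non-silencing siRNA, with 1193, 1077 and 1108 under TCF7L1 siRNA, 1083, 996.5 and 842 under the non-silencing siRNA and 1086, 1033 and 894 without siRNA (log2 difference 0.21, SE 0.12, adjusted p = 1). CHD1 differed by 0.16 (SE 0.10) and CHD5 by -0.14 (SE 0.11) in that comparison, both at adjusted p = 1. These groups of CHD7 overlapped, while the TCF7L1 siRNA samples of CHD1 lay above those under non-silencing siRNA. In that comparison 1 of the 25 was higher without overlap and 0 lower, where 1.88% and 3.12% of all tested probe sets were.

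HLTF, a SWI/SNF-family ATPase of DNA damage tolerance, had lower means in both siRNA groups than without siRNA and did not pass. The signals of HLTF were 1115, 935 and 890.5 without siRNA, 911, 723 and 657 under non-silencing siRNA and 866, 709 and 747 under TCF7L1 siRNA. The difference was -0.36 between the controls (log2, SE 0.14, adjusted p = 0.927) and -0.33 for TCF7L1 siRNA against no siRNA (SE 0.14, adjusted p = 0.662), and 0.03 between the siRNAs. The TCF7L1 siRNA samples lay below those without siRNA, and the controls overlapped. Under TCF7L1 siRNA against no siRNA 0 of the 25 were higher without overlap and 2 lower, where 6.43% and 7.93% of all tested probe sets were. Between the controls 21 of the 25 ATPases lay below 0, with a median of -0.06. Of all tested probe sets 12237 of 22784 lay below 0, with a median of -0.01. For TCF7L1 siRNA 18 of the 25 lay above 0 against the non-silencing siRNA, where 10898 of all did. Against no siRNA 16 lay below 0, where 12360 of all did. The 25 genes share their arrays, so these are not 25 separate signs. Non-silencing replicate 3 held the lowest HLTF signal and had a median shift of -0.05 over all tested probe sets. Its part in these counts was not tested. SMARCAL1 (-0.20, SE 0.15) and CHD2 (-0.17, SE 0.15) followed HLTF between the controls (adjusted p = 0.927 each). CHD6 differed by -0.16 between TCF7L1 siRNA and no siRNA (SE 0.10, adjusted p = 0.677).

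**Figure D5:**
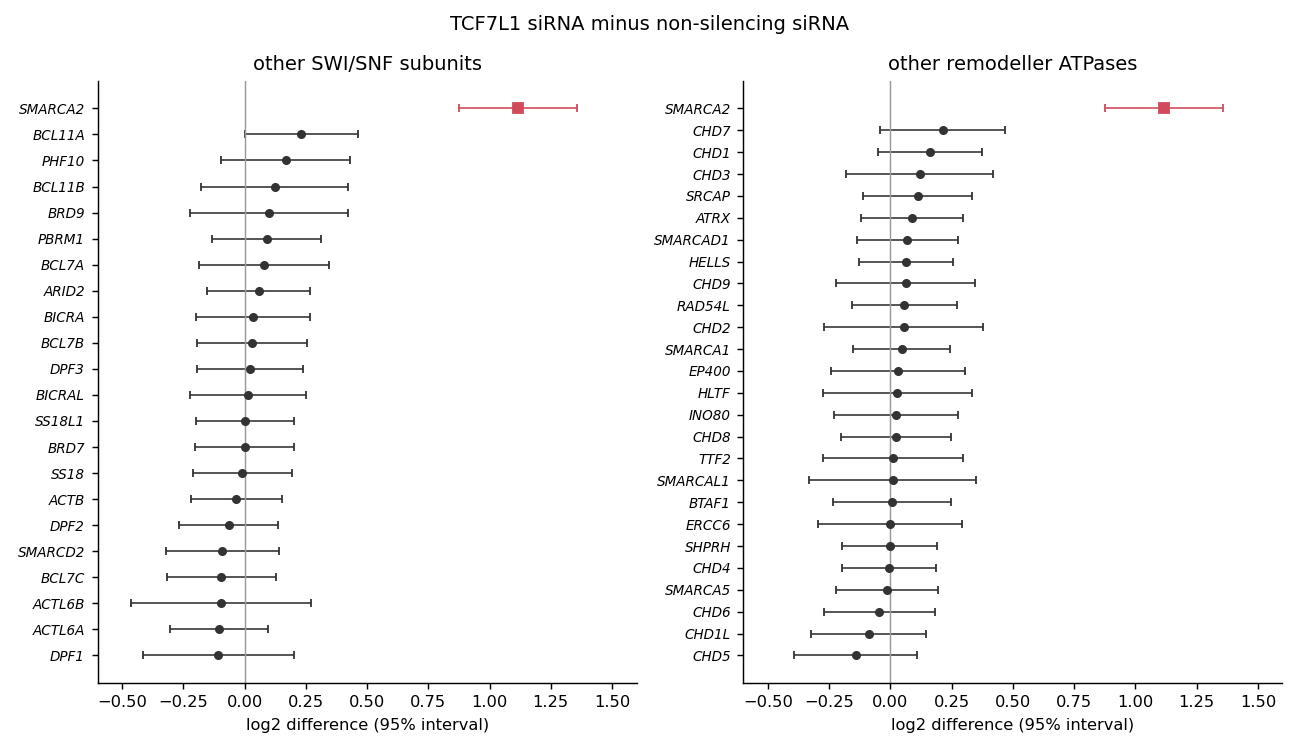
Log2 differences between TCF7L1 siRNA and non-silencing siRNA with 95% intervals, for 21 other SWI/SNF subunits (left) and 25 other remodeller ATPases (right), with SMARCA2 as a square at the top of each panel. The subunits lie between -0.11 and 0.23 and the ATPases between -0.14 and 0.21, and SMARCA2, chosen for this contrast, stands at 1.12.

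Genes near SMARCA2 on chromosome 9 did not pass in the comparison of the siRNAs. Within 2 Mb of its probe set lay 23 other probe sets, of which 17 were tested. Their median log2 difference was 0.00 (range -0.36 to 0.24, 9 above 0), and 0 of 17 passed by limma, with 1 at an unadjusted p under 0.05, where 0.0263% and 2.58% of all tested probe sets did. That one was DMRT3, a transcription factor gene, with 129 ± 35.1 under TCF7L1 siRNA and 167 ± 12.9 under the non-silencing siRNA (SD, n = 3 each; -0.36, SE 0.16, adjusted p = 1). KCNV2 (0.24, SE 0.18) and GLIS3 (-0.10, SE 0.09) came next, both at adjusted p = 1. The lipoprotein receptor gene VLDLR, whose probe sets begin at 2535657 and 2622090, differed by -0.07 (SE 0.14) and -0.12 (SE 0.16). Against no siRNA these VLDLR probe sets differed by -0.32 (SE 0.14, adjusted p = 0.662) and 0.06 (SE 0.16, adjusted p = 0.911), and between the controls by -0.25 and 0.18 (adjusted p = 0.927 each). None of the 17 passed in those comparisons.

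The genes whose pattern over the 9 arrays was most like that of SMARCA2 were ranked by Pearson correlation of log2 signals, given as a description because 3 arrays stand apart in SMARCA2 itself and all points share their arrays. DACT1, an antagonist of Wnt signalling, came first (r = 0.987), then the TGF-beta ligand gene NODAL (0.983) and the Wnt ligand gene WNT3 (0.973). They were followed by MCC (0.957), a gene known from colorectal cancer, and the fatty aldehyde dehydrogenase gene ALDH3A2 (0.956). DACT1 had 589, 510.1 and 585 under TCF7L1 siRNA and between 168 and 195 in the controls. WNT3 had 196, 190.5 and 183 under TCF7L1 siRNA and between 146 and 158 in the 6 controls. ALDH3A2 had 951, 968.5 and 955 and between 647.5 and 776.5 in the controls. In all 5 genes the 3 TCF7L1 siRNA samples lay above the 6 controls, an outcome that ranking by likeness to SMARCA2 favours. Of all tested probe sets, 1.88% had all TCF7L1 siRNA samples above the non-silencing samples. For the samples without siRNA that share was 6.43%. NODAL had 95.4, 95.7 and 95.3 against 29.2 to 37.6, and MCC had 330, 259 and 281 against 173 to 223. The control signals of NODAL lay near the 25th percentile of the arrays (28.0 to 34.6). In non-silencing replicate 3 its signal of 29.2 lay under that percentile (34.6), so the fold of NODAL depends on the treatment of low signals. Among the 9 further genes followed here ARID1A was most like SMARCA2 (r = 0.836), and r lay between -0.21 and 0.44 for the other 8 genes.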

How the data were processed

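Per the submitters' processing notes, the authors used Affymetrix Expression Console 1.1.1 and PLIER 2.0, and the deposited values are linear intensity signals per probe set. How the software corrected background and normalized the arrays is not stated there. A second deposited table held the same values (largest difference 0). Of 33297 probe sets, 4201 controls were left out.

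Signals were tested as log2(signal + 16) with limma 3.58.1 (R 4.3.3). The model had a mean for each group over all 9 arrays, with 6 residual degrees of freedom, and p-values were two-sided and adjusted by Benjamini-Hochberg over 22784 probe sets at a threshold of 0.05. These lay above the 25th percentile of their array on at least 3 arrays, and all 11 probe sets of the 10 genes did. The probe set of highest mean stood for a gene. Ratios within arrays were tested by exact permutation (scipy 1.17.1). The number of arrays limits the precision (median SE 0.119).

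The members, the lists and the naming rule were chosen with earlier results of these data known. Named were the 10 genes, TCF7L1, in each other list any gene past the threshold and the 3 of smallest p per comparison, the 3 neighbours of smallest p (VLDLR was added after its values were seen) and the 5 genes most like SMARCA2. Alternatives were other offsets, quantile normalization, other dim filters, fits of 2 groups, a replicate block, array spread as a covariate and leaving out each array. The labels do not say whether replicate numbers pair the samples, and the main model did not pair them. Over the 9 same-numbered pairs of arrays, deviations from group means correlated at -0.26 to 0.68. Over the differently numbered pairs they correlated at -0.753 to 0.715, so these values do not settle the pairing.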

Additional observations from a re-analysis of the deposited data

How the results depend on the processing

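Over 54 results and 918 alternative values, 848 kept their direction and their side of the threshold or moved by less than 1 SD, 24 moved and 46 turned sign. The SMARCA2 difference followed the offset: offsets of 1 and 64 gave 1.27 and 0.81 against non-silencing siRNA and 1.14 and 0.74 against no siRNA (log2), since the offset weighs most on low signals. With single arrays left out it ran from 1.03 to 1.18 and from 0.923 to 1.08. The SMARCA2 to SMARCA4 ratio gave 1.34 and 0.877 (offsets 1 and 64) against non-silencing siRNA and 1.19 and 0.785 against no siRNA. Quantile normalization gave 0.981 for the latter and -0.217 between the controls. With the replicate block 11 probe sets passed against non-silencing siRNA (6 without) and 20 against no siRNA (12 without), and with array spread as a covariate 25 and 22. Whether the replicate numbers pair the samples was not settled, and with the block 0 of the 9 genes other than SMARCA2 passed in any comparison. Against no siRNA, leaving out single arrays gave 3 to 15 probe sets. The cause was not tested.

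All sign changes of single genes were of small differences that passed under no setting. Against no siRNA, quantile normalization gave 0.013 for SMARCA4, 0.0117 for SMARCC1 and 0.0204 for SMARCD1. With array spread as a covariate that contrast gave 0.0103 for SMARCA4, 0.0119 for SMARCB1, 0.0442 for SMARCC1, 0.0599 for SMARCD1, -0.0162 for SMARCD3 and 0.00223 for SMARCE1. Between the controls the covariate gave 0.000536 for SMARCC2, 0.0186 for SMARCD1 and 0.0108 for SMARCE1. With single arrays left out, differences from no siRNA ran from -0.0829 to 0.00399 for SMARCA4, -0.157 to 0.000568 for SMARCB1, -0.08995 to 0.00479 for SMARCC1, -0.115 to 0.0217 for SMARCD1, -0.0941 to 0.158 for SMARCD3 and -0.136 to 0.0077 for SMARCE1. Against non-silencing siRNA they ran from -0.0842 to 0.0735 for SMARCB1, -0.0101 to 0.116 for SMARCC1, -0.105 to 0.05002 for SMARCC2, -0.0531 to 0.0835 for SMARCD1, -0.0504 to 0.201 for SMARCD3, -0.087 to 0.0385 for SMARCE1 and -0.0238 to 0.0548 for ARID1B. Between the controls they ran from -0.00943 to 0.0834 for SMARCA4, -0.131 to 0.00586 for SMARCC2, -0.0903 to 0.00403 for SMARCD3, -0.0996 to 0.0253 for SMARCE1 and -0.0454 to 0.0615 for ARID1A. The SMARCC1 to SMARCC2 and SMARCD1 to SMARCD3 ratios also changed sign in every comparison when single arrays were left out. Against non-silencing siRNA these ratio changes ran from -0.0048 to 0.142 and from -0.138 to 0.129. SMARCA2 lay below the array median in all 6 controls, so its fold depends on the treatment of low signals, and 3 arrays per group limit the precision of every difference.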
